A study of Mus musculus with 9 samples.

Results

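The 10 genes described here encode the AP-1, ATF and CREB transcription factors Jun, Junb, Jund, Fos, Fosl1, Fosl2, Atf3, Atf4, Creb5 and Creb1. They were chosen by name as bZIP genes outside the C/EBP family and were found by symbol among the 55487 gene identifiers of the count lists. All 10 were among the 14312 genes that passed the filter on low counts, and the smallest count of any of them in a library was 59, for Creb5. Transcripts were counted in unstimulated RAW264.7 cells, a mouse macrophage line, in 3 libraries each of wild-type cells, cells labelled CEBPD KO, and cells labelled CEBPD TAD. The knock-out cells carry an out-of-frame deletion made with CRISPR guides, and the ΔTAD cells lack the transactivation domain of C/EBPδ, deleted in frame at the endogenous gene, so that a protein that can bind DNA but not activate transcription was intended. All 3 genotypes were grown in the same medium and none was treated with an agonist. The series' design speaks of 3 independent clones, and whether the 3 libraries of a genotype are 3 clones is not given in the sources used here. The p-values therefore measure only the spread between these libraries, which may be that of clones or of cultures. In RNA from bulk cells, fewer expressing cells and less RNA per cell cannot be told apart.

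All bZIP factors grip DNA as dimers, through a basic region that reads the sequence and a leucine zipper that chooses the partner. Jun proteins pair with each other or with Fos proteins, whereas Fos proteins need a Jun or ATF partner to form the complex called AP-1, which binds TGACTCA. CREB and ATF dimers bind the cAMP response element (CRE), TGACGTCA, and ATF4 and C/EBP proteins, which are bZIP factors themselves, can pair on a composite of the C/EBP and CRE sites, TTGCATCA. In macrophages, Fos, Junb and Atf3 are known as immediate-early genes of the response to Toll-like receptor ligands, ATF3 is known as a brake on inflammatory genes, and ATF4 is the effector of the integrated stress response, made mostly by regulated translation.

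These motifs were searched on both strands in the 250 bases before each gene's RefSeq start (GRCm38.p6), because several of the genes are known to respond to AP-1 and CREB proteins themselves. Windows were found for 9 of the 10 genes, with a second one for Creb5 and none for Fosl1, and 5 are shown: those of Jun, Fos, Atf3 and Creb5, which hold an AP-1, CRE or composite motif, and that of Junb, the Jun gene that changed most against wild-type. Each is at most the 160 bases nearest the start, ended where an annotated exon of the gene begins, and runs 5′ to 3′ on the gene's strand, with motifs in capitals. Positions count back from the base before the start, at −1.
Jun, chr4:95052223-95052382, minus strand: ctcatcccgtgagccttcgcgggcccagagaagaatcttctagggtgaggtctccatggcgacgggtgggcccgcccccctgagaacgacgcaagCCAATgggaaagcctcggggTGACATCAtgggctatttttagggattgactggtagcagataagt
Fos, chr12:85473730-85473889, plus strand: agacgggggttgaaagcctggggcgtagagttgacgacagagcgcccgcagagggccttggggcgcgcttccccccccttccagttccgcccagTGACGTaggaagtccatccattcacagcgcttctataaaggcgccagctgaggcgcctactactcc
Junb, chr8:84978749-84978908, minus strand: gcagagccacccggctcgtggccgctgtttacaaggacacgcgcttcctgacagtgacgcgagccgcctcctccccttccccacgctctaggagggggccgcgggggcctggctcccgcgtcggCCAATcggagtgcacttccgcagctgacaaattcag
Atf3, chr1:191183341-191183493, minus strand: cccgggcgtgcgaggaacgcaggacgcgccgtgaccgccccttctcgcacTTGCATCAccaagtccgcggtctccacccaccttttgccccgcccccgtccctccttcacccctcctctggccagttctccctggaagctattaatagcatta
Creb5, chr6:53287143-53287269, plus strand: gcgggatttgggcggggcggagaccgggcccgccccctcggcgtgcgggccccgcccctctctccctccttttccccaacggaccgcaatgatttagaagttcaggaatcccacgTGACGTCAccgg

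The Jun window holds TGACATCA, the AP-1 site known from the Jun promoter, at −45 to −38, and a CCAAT box at −65 to −61. TGACATCA is found in 2.93% of all 32851 promoter windows of that length and CCAAT in 33.85%. The Fos window holds the CRE half-site TGACGT at −66 to −61, which 6.47% of windows hold. In the Atf3 window the composite TTGCATCA lies at −110 to −103, a motif of 0.79% of windows. This window lies inside the gene as annotated in GENCODE, whose 5′ end on the minus strand is at 191218039. A CRE half-site of Atf3 at −8 to −3 runs into an annotated exon and is not marked. The full CRE TGACGTCA, which contains the half-site on both strands, stands in the first Creb5 window at −45 to −38 and in 1.55% of all windows. The second Creb5 window, which also lies inside its GENCODE gene, has the AP-1 site TGACTCA, found in 4.46% of windows, at −45 to −39. Junb has a CCAAT box at −36 to −32, Atf4 a pair of them, and Jund, in a window that lies upstream of its GENCODE start, the C/EBP-type motif TTGCNNAA, which 9.56% of windows hold, at −152 to −145. Creb1 and Fosl2 had no match to the letters searched. A match describes the letters and is no evidence of binding.

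Between 16113306 and 20981829 counts per library fell on genes, and 3 counts were 0.143 to 0.186 counts scaled to library size (CPM). Values below are CPM scaled by the trimmed mean of M-values (TMM), with 3 libraries a genotype, and a gene was called at a p-value under 0.01 in the quasi-likelihood test of edgeR, adjusted by the method of Benjamini and Hochberg over all 14312 genes. ΔTAD replicate 1 stood apart, with 16.3% of its records not uniquely aligned and a TMM factor of 0.888 against 0.999 to 1.027 in the other libraries. By chi-square per degree of freedom on the counts of tested genes, it lay at 142.8 and 143.4 from ΔTAD replicates 2 and 3. These lay at 2.24 from each other and at 60.4 to 69.6 from wild-type libraries. Without ΔTAD replicate 1, none of the 30 calls on the 10 genes changed. The split of calls over all genes went from 3765 higher and 3350 lower to 3409 and 3618 against wild-type. For knock-out against ΔTAD it went from 1990 and 2740 to 2293 and 2274. The Cebpd transcript stood at 6.51 ± 0.674 CPM (SD, n = 3) in wild-type, 5.44 ± 0.201 in the knock-out and 5.44 ± 0.669 in the ΔTAD macrophages. It was not called in knock-out (log2 fold change −0.26, adjusted p = 0.0850) or ΔTAD against wild-type (−0.24, adjusted p = 0.0931). Knock-out libraries (5.22 to 5.61 CPM) lay below wild-type ones (6.12 to 7.29), and ΔTAD libraries (4.90 to 6.19) overlapped both. The Cebpd level therefore does not check the labels. Macrophage markers were present in every library, with 11 of 12 over 3 counts. Csf1r, the receptor of the macrophage growth factor, stood at 389 ± 5.21 CPM and Cd68, a lysosomal glycoprotein, at 733 ± 31.0 in wild-type cells, while Mertk was at or near 0 throughout.

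In knock-out against wild-type macrophages 6 of the 10 genes rose (Junb, Jund, Fos, Fosl2, Atf3 and Creb5), Fosl1 fell, and Jun, Atf4 and Creb1 were not called. Among all genes tested, 22.8% were called higher and 22.4% lower. In ΔTAD against wild-type macrophages 5 rose (Junb, Jund, Fos, Fosl2 and Atf3), 3 fell (Jun, Fosl1 and Creb5), and Atf4 and Creb1 were not called, against 26.3% called higher and 23.4% called lower of all genes. Between the edited genotypes, Jun, Fosl1 and Creb5 were higher in knock-out, Junb and Fos were lower in knock-out than in ΔTAD macrophages, and the other 5 were not called, while 13.9% of all genes were called higher and 19.1% lower. With library size as the scaling in place of TMM, the split of calls over all genes moved from 3765 higher and 3350 lower to 2585 and 3943 for ΔTAD against wild-type and from 1990 and 2740 to 2281 and 1024 for knock-out against ΔTAD. The comparisons with wild-type share the same 3 wild-type libraries.

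With a log2 fold change of 1 or more in absolute size also required, Fos and Atf3 were the 2 genes called higher in knock-out macrophages and 0 were called lower, against 3.62% higher and 4.04% lower of all genes. In ΔTAD macrophages the same 2 were called higher and Fosl1 and Creb5 lower, against 4.09% and 5.23% of all genes. Between the edited genotypes Creb5 was called higher and Fos lower in knock-out, against 2.28% and 1.66%.

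By absolute log2 fold change, the median of the 10 genes was 0.43 in the knock-out and 0.66 in the ΔTAD macrophages, against 0.24 and 0.27 over all genes tested. Between knock-out and ΔTAD it was 0.18, and 0.18 over all genes. The signed medians of the 10 were 0.33, 0.22 and −0.01 in the 3 comparisons, against −0.00, −0.00 and −0.03 over all genes. The libraries of knock-out and wild-type macrophages did not overlap for 9 of the 10 genes, against 59.7% of all genes. For ΔTAD and wild-type this was 9 of 10 against 63.1%, and for the pair of edited genotypes 6 of 10 against 52.8%.

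**Figure D1:**
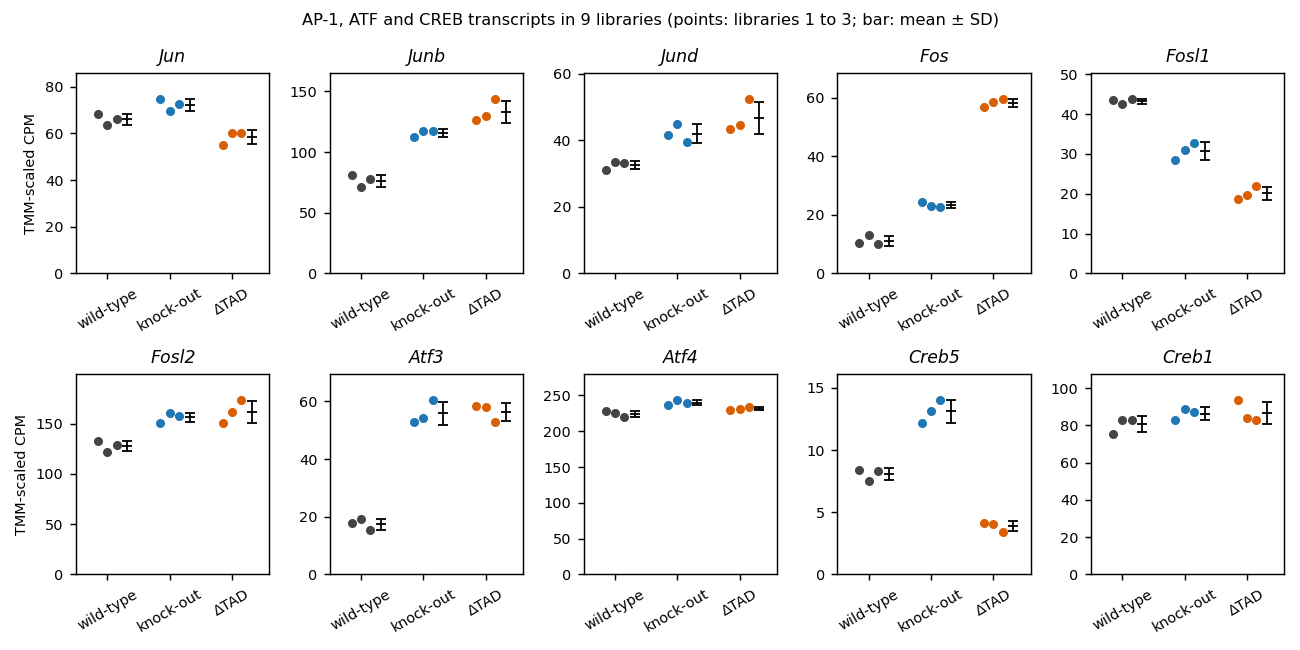
TMM-scaled CPM of each of the 10 genes (y axis, from 0) in the 3 wild-type, 3 knock-out and 3 ΔTAD libraries (points, with the mean ± SD beside them). Fos climbs from 9.93 to 13.0 CPM in wild-type to 56.9 to 59.4 CPM in ΔTAD libraries, Fosl1 descends over the same order, and Creb5 is highest in knock-out and lowest in ΔTAD libraries.

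Fos, the founding partner of Jun in AP-1 (ENSMUSG00000021250, chromosome 12 from 85473890 to 85477273, plus strand), had the largest change of the 10 in ΔTAD against wild-type macrophages. Its CPM in libraries 1 to 3 was 10.5, 13.0 and 9.93 in wild-type, 24.5, 23.0 and 22.7 in knock-out and 56.9, 58.5 and 59.4 in ΔTAD macrophages. The 3 genotypes did not overlap at any point. Fos rose 2.10-fold in knock-out macrophages (log2 fold change 1.07, SE 0.0821, adjusted p = 4.54e-11) and 5.23-fold in ΔTAD macrophages (2.39, SE 0.0722, adjusted p = 5.87e-19). The level in knock-out was 2.49-fold lower than in ΔTAD macrophages (−1.32, SE 0.0637, adjusted p = 3.12e-14). In ΔTAD macrophages 2.19% of the genes tested had a larger absolute fold change.

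The chromosome of Fos moved in the other direction. Over the 541 tested genes of chromosome 12, the median of the log2 fold changes against wild-type was −0.52 for knock-out and −0.54 for ΔTAD, with 350 genes called lower and 21 higher in knock-out, and 359 lower and 27 higher in ΔTAD macrophages. The 20 nearest tested genes around Fos had medians of −0.54 and −0.46. Fos ranked 8 of 541 from the highest in knock-out and 2 of 541 in ΔTAD macrophages, and relative to the chromosome's median its log2 fold changes were 1.59 and 2.93. For the other 9 genes the chromosome's median lay between −0.07 and 0.05 in all comparisons. The number of copies of chromosome 12 was not measured, and its part in the level of Fos was not tested.

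Fosl1, which encodes FRA-1, a Fos protein without the strong activation domain of FOS, changed in the opposite direction (ENSMUSG00000024912, chromosome 19 from 5447547 to 5455946, plus strand). Its CPM in libraries 1 to 3 was 43.6, 42.5 and 43.7 in wild-type, 28.5, 30.9 and 32.8 in knock-out and 18.6, 19.8 and 21.9 in ΔTAD macrophages. Again the genotypes did not overlap, with ΔTAD lowest. Fosl1 fell 1.41-fold in knock-out (log2 fold change −0.50, SE 0.0619, adjusted p = 2.34e-07) and 2.14-fold in ΔTAD macrophages (−1.10, SE 0.0655, adjusted p = 3.44e-13), and knock-out exceeded ΔTAD by 0.60 (SE 0.0687, adjusted p = 1.72e-07). The exons of Fosl1 share 1163 bases with Ccdc85b on the opposite strand, whose own counts gave log2 fold changes of −0.42 (called) in knock-out and −0.11 (not called) in ΔTAD against wild-type. The strand setting of the counting is not given in the sources used here, so reads of such pairs may not be told apart.

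Fosl2, the gene of FRA-2 (ENSMUSG00000029135, chromosome 5 from 32135801 to 32157842, plus strand), had CPM of 133, 122 and 129 in wild-type, 151, 161 and 157 in knock-out and 151, 161 and 173 in ΔTAD libraries. Both edited genotypes lay above wild-type and overlapped each other. It rose by 0.29 (SE 0.0440, adjusted p = 4.55e-06) and 0.34 (SE 0.0439, adjusted p = 2.90e-07) on the log2 scale, while knock-out and ΔTAD differed by −0.05 (interval of ±2 SE −0.14 to 0.03, adjusted p = 0.325).

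**Figure D2:**
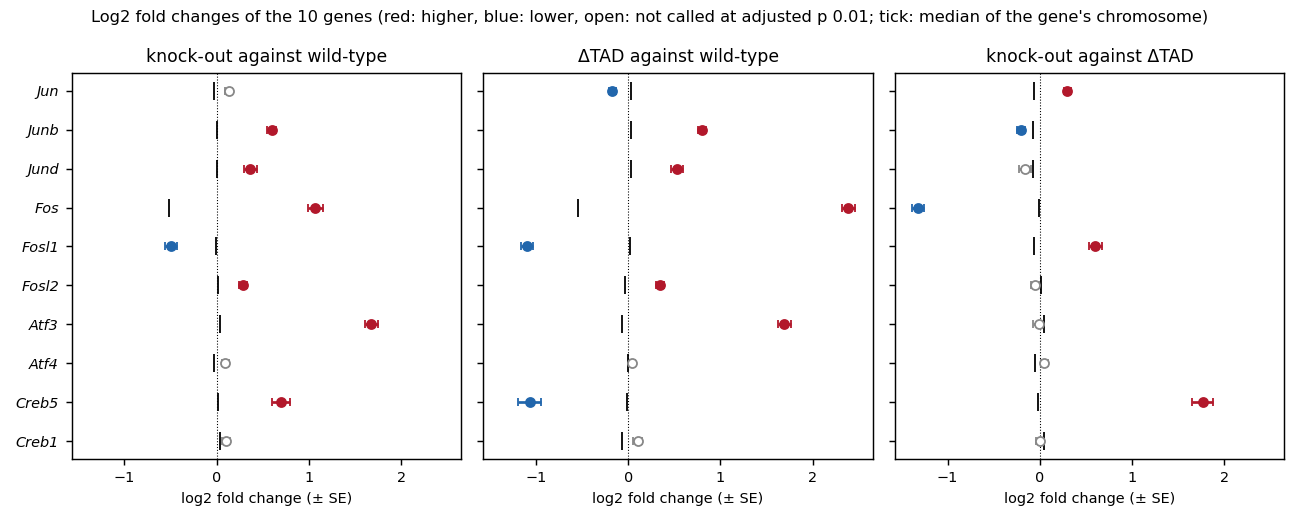
Log2 fold change ± SE (x axis) of each of the 10 genes in the 3 comparisons, filled red where called higher, filled blue where called lower and open where not called, with a tick at the median of the gene's chromosome. Fos stands at 2.39 in ΔTAD against wild-type while its chromosome's tick stands at −0.54, and Creb5 lies on opposite sides of 0 in the comparisons with wild-type.

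Among the Jun genes, Junb rose most. JUNB is the Jun protein often found to restrain the activity of JUN (ENSMUSG00000052837, chromosome 8 from 84974484 to 84978718, minus strand). Its CPM in libraries 1 to 3 was 80.7, 71.0 and 77.8 in wild-type, 112, 118 and 117 in knock-out and 126, 129 and 143 in ΔTAD macrophages, without overlap. The rise was 1.51-fold in knock-out (log2 fold change 0.60, SE 0.0464, adjusted p = 6.06e-11) and 1.74-fold in ΔTAD macrophages (0.80, SE 0.0457, adjusted p = 1.49e-13). Knock-out lay below ΔTAD by a log2 fold change of −0.20 (SE 0.0439, adjusted p = 0.000551), a call lost with library size as the scaling (−0.13, adjusted p = 0.0803). The exons of Junb share 173 bases with Prdx2, a peroxiredoxin gene on the opposite strand, which was also called higher, at 0.46 in knock-out and 0.75 in ΔTAD against wild-type.

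Jund, the Jun gene known for steady expression in resting cells (ENSMUSG00000071076, chromosome 8 from 70698949 to 70700616, plus strand), followed with smaller changes. It stood at 31.3, 33.6 and 33.2 CPM in wild-type, 41.6, 45.0 and 39.6 in knock-out and 43.4, 44.6 and 52.3 in ΔTAD libraries. The edited genotypes overlapped each other but not wild-type. Jund rose by 0.37 (SE 0.0669, adjusted p = 5.19e-05) and 0.53 (SE 0.0656, adjusted p = 1.91e-07) on the log2 scale, and knock-out against ΔTAD was not called (−0.16, interval of ±2 SE −0.29 to −0.03, adjusted p = 0.0414). Of its exon bases, 877 are shared with Gm11175 on the opposite strand, which had 7 to 24 counts a library.

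Jun itself, the strongest activator of the Jun family and a target of JNK (ENSMUSG00000052684, chromosome 4 from 95049034 to 95052222, minus strand), moved little. Its CPM was 68.5, 63.8 and 66.1 in wild-type, 74.6, 69.6 and 72.7 in knock-out and 55.1, 60.1 and 60.3 in ΔTAD libraries. Knock-out libraries were the highest and ΔTAD the lowest, with no overlap between genotypes. The largest difference was between the edited genotypes, where knock-out exceeded ΔTAD by a log2 fold change of 0.30 (SE 0.0422, adjusted p = 3.74e-06). Jun fell by 0.17 on the log2 scale in ΔTAD against wild-type (SE 0.0427, adjusted p = 0.00132), a call lost without wild-type replicate 1 (adjusted p = 0.0143). In knock-out against wild-type it was not called (0.13, SE 0.0418, adjusted p = 0.0110), but was called without knock-out replicate 2 (0.17, adjusted p = 0.00428) or without wild-type replicate 1 (0.16, adjusted p = 0.00536). Jun shares 232 exon bases with the antisense gene Junos, which had 22 to 44 counts a library.

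Atf3, the stress-induced repressor of the ATF family (ENSMUSG00000026628, chromosome 1 from 191170296 to 191218039, minus strand), rose in both edited genotypes. It stood at 17.7, 19.2 and 15.4 CPM in wild-type, 53.0, 54.2 and 60.4 in knock-out and 58.3, 58.2 and 52.8 in ΔTAD libraries. Every edited library held at least 52.8 CPM, against at most 19.2 in wild-type, and the edited genotypes overlapped. The rise was 3.20-fold in knock-out (log2 fold change 1.68, SE 0.0704, adjusted p = 4.37e-16) and 3.22-fold in ΔTAD macrophages (1.69, SE 0.0700, adjusted p = 2.84e-16). The difference between knock-out and ΔTAD was −0.01 on the log2 scale, with an interval (±2 SE) of −0.13 to 0.11. In knock-out macrophages 3.66% of all genes had a larger absolute fold change, and in ΔTAD macrophages 3.91%.

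Creb5, a CREB-like factor that pairs with Jun or ATF2 proteins (ENSMUSG00000053007, chromosome 6 from 53287270 to 53700376, plus strand), was the only one of the 10 called in opposite directions against wild-type. Its CPM was 8.43, 7.52 and 8.30 in wild-type, 12.2, 13.2 and 13.996 in knock-out and 4.13, 4.08 and 3.43 in ΔTAD libraries. The genotypes did not overlap. Creb5 rose 1.62-fold in knock-out (log2 fold change 0.69, SE 0.0965, adjusted p = 1.19e-06) and fell 2.10-fold in ΔTAD macrophages (−1.07, SE 0.121, adjusted p = 3.98e-08). Between the edited genotypes the difference was 3.40-fold (1.76, SE 0.111, adjusted p = 4.60e-12), which 1.79% of all genes exceeded in absolute size.

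Atf4 and Creb1 were not called in any comparison. Atf4 (ENSMUSG00000042406, chromosome 15 from 80255184 to 80257541, plus strand) stood at 228, 226 and 220 CPM in wild-type, 237, 243 and 239 in knock-out and 229, 231 and 234 in ΔTAD libraries. Its libraries did not overlap between any pair of genotypes, but the log2 fold changes were 0.09 (SE 0.0343, adjusted p = 0.0219) in knock-out and 0.04 (SE 0.0343, adjusted p = 0.283) in ΔTAD macrophages, with intervals (±2 SE) of 0.03 to 0.16 and −0.02 to 0.11. In limma-voom the first of these was called (adjusted p = 0.00771). Creb1, the cAMP-responsive activator phosphorylated by protein kinase A (ENSMUSG00000025958, chromosome 1 from 64532645 to 64604548, plus strand), had 75.7, 83.0 and 83.2 CPM in wild-type, 82.8, 89.1 and 87.4 in knock-out and 93.5, 83.9 and 82.7 in ΔTAD libraries. Every pair of genotypes overlapped. Against wild-type the log2 fold changes of Creb1 were 0.10 in knock-out (adjusted p = 0.0597) and 0.10 in ΔTAD macrophages (adjusted p = 0.0564), with upper bounds (2 SE) of 0.19 in each.

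Between genes, levels were set side by side as CPM per kb of exon (the union of the annotated exons in GENCODE M21), where the coefficient of variation within a genotype ran from 1.05% for Atf4 to 14.7% for Fos. In wild-type macrophages Atf4 led with 95.3 CPM per kb, followed by Junb (33.3), Fosl1 (21.3), Jun (20.7), Jund (19.6), Fosl2 (13.2), Atf3 (8.09), Creb1 (5.87), Fos (4.74) and Creb5 (0.323). The libraries of Fosl1 and Jun, of Jun and Jund and of Creb1 and Fos overlapped. Atf3 stood seventh in this order in wild-type, next to Jund behind Atf4 and Junb in knock-out (25.9 and 25.2 CPM per kb), and with Jund (28.0) and Fos (24.8) on either side of it in ΔTAD macrophages (26.2), where each neighbouring pair overlapped. Fosl1 went from 21.3 to 15.1 in knock-out and 9.89 CPM per kb in ΔTAD macrophages. With the length of the longest transcript in place of all exons, Creb5 stood at 1.02 and Creb1 at 9.64 CPM per kb in wild-type, and Creb1 then passed Atf3 (8.79).

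Among Jun, Junb and Jund, and among Fos, Fosl1 and Fosl2, the share of each gene in the summed CPM per kb does not depend on the scaling between libraries. Fosb, the remaining Fos gene and none of the 10, is not in these sums. Fos made up 12.1% ± 1.82 (SD, n = 3) of the sum of Fos, Fosl1 and Fosl2 in wild-type, 24.2% ± 1.65 in the knock-out and 48.2% ± 1.31 in the ΔTAD macrophages, and Fosl1 made up 54.3% ± 0.781, 36.7% ± 1.69 and 19.2% ± 0.680. The genotypes did not overlap for either gene. By mean share the leading transcript was Fosl1 in wild-type, Fosl2 in knock-out and Fos in ΔTAD macrophages. In knock-out the lead was narrow, as the levels of Fosl2 and Fosl1 (16.1 and 15.1 CPM per kb) overlapped between libraries. Of the 2033 exon bases of Fosl1, 1163 are shared with Ccdc85b, and shares without them were not computed. The share of Fosl2 was 33.6% ± 1.23, 39.2% ± 0.660 and 32.5% ± 0.645. The summed level of these 3 genes was 39.2 ± 0.328, 41.2 ± 1.06 and 51.4 ± 2.52 CPM per kb. With Fosb in the sum, chosen after seeing the data, Fosb held 3.21%, 4.09% and 1.58%, Fos 11.7%, 23.2% and 47.5%, and the same gene led in each genotype. With the longest transcript as the length the same genes led, Fosl1 with 48.3%, Fosl2 with 46.4% and Fos with 43.8%.

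Among the 3 Jun genes the share of Junb went from 45.2% ± 1.58 in wild-type to 51.2% ± 1.02 in the knock-out and 55.5% ± 0.369 in the ΔTAD macrophages, and that of Jun from 28.2% ± 0.339 to 23.1% ± 1.14 and 17.6% ± 0.862. The libraries of the 3 genotypes did not overlap for Junb or Jun. Jund held 26.7% ± 1.73, 25.7% ± 1.33 and 26.9% ± 0.870, and its libraries overlapped in every pair. Summed over the 3, the level was 73.6 ± 2.28, 98.2 ± 1.502 and 104.2 ± 7.48 CPM per kb. Of the 1668 exon bases of Jund, 877 are shared with Gm11175, and of the 2301 of Junb, 173 with Prdx2. Shares without these bases were not computed. The size of the shares also depends on the length used, as the longest Junb transcript has 1809 bases.

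**Figure D3:**
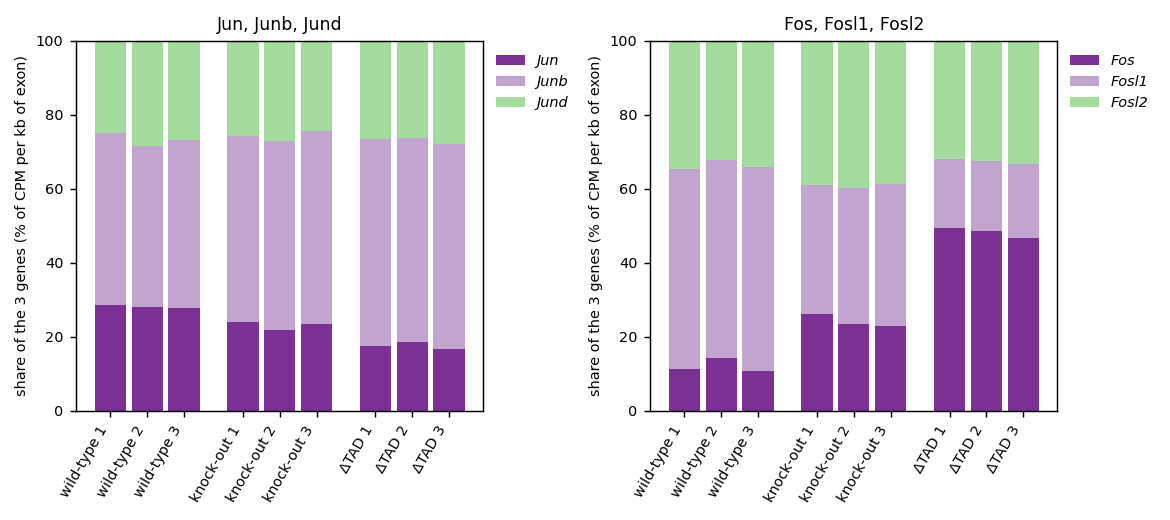
Share of each gene in the summed CPM per kb of 3 genes (y axis, percent) in each of the 9 libraries (bars), for Jun, Junb and Jund on the left and for Fos, Fosl1 and Fosl2, without Fosb, on the right. Fos takes 10.8% to 14.2% of its sum in the wild-type libraries and 46.8% to 49.4% in the ΔTAD libraries, and Junb is the largest part of the Jun genes in all 9.

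For the 4 genes called in all 3 comparisons, the genes with the most similar pattern over the 9 libraries were named by Pearson's r of log2 CPM. These values describe libraries that share 3 genotype means and carry no test. Fos was most like Zfhx4, a zinc finger and homeodomain factor (r = 0.9965), Lyz2, the macrophage lysozyme (0.9944), and Bhlhe41, a repressor of the bHLH family (0.9944). Lyz2 went from 1167 CPM in wild-type to 2114 in the knock-out and 4192 in the ΔTAD macrophages. Fosl1 was most like Adgrl2, an adhesion receptor (0.993), Tm6sf1 (0.9918) and the chemokine Ccl9 (0.9916), which went from 1121 CPM in wild-type to 824 and 536. Junb was most like Bsn (0.9969), Atp6v1f, a subunit of the proton pump V-ATPase (0.9948), and Tbc1d9b (0.9942). Creb5 was most like Zfp985 (0.9952), Lilr4b, an inhibitory receptor (0.9944), and Ptpn22, a tyrosine phosphatase of immune signalling (0.9905). Ptpn22 stood at 221 CPM in wild-type, 271 in the knock-out and 167 in the ΔTAD macrophages.

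The counts of calls in the lists that follow are to be read beside the shares over all genes tested. Against wild-type, 22.8% of all genes were called higher and 22.4% lower in knock-out, and 26.3% and 23.4% in ΔTAD macrophages. Of 5 other AP-1 genes, 3 were tested. Fosb, the fourth Fos gene, was called in opposite directions as Creb5 was: it stood at 8.12 ± 0.797 CPM in wild-type, 10.96 ± 0.728 in the knock-out and 5.14 ± 0.550 in the ΔTAD macrophages, with log2 fold changes of 0.43 (adjusted p = 0.00103) and −0.68 (adjusted p = 2.54e-05) against wild-type and 1.11 between knock-out and ΔTAD (adjusted p = 2.50e-08). Jdp2, a repressor of AP-1 on chromosome 12, had values of 0.16 and 0.20 that were not called. Batf2 was not called either, and Batf and Batf3 were at 4 counts or fewer. Of 14 other ATF and CREB genes tested, 2 rose and 1 fell in knock-out, and 5 rose and 2 fell in ΔTAD against wild-type, with medians of 0.02 and 0.06. Among those called, the largest in knock-out were Crebl2 (0.88) and Atf6b (0.42), which encodes a sensor of unfolded proteins in the endoplasmic reticulum. Creb3l3, not called in knock-out, had 1.11 there (adjusted p = 0.0199). Among those called in ΔTAD macrophages, Creb3l3 (1.58) and Creb3l2 (0.62) had the largest values. Atf6b was also called there (0.58), and Crebl2 had 0.72 without being called. Creb3l3 was low, at 0.365 ± 0.193 CPM in wild-type and 1.08 ± 0.115 in ΔTAD macrophages, with at most 23 counts in a library. The 1 gene that fell in knock-out was Creb3l2 (−0.33).

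Of 11 tested genes of the MAF, CNC, PAR and other bZIP families, 4 rose and 3 fell in knock-out, and 4 rose and 5 fell in ΔTAD macrophages. Maff, a small MAF protein, rose by 1.07 in knock-out and 0.64 in ΔTAD macrophages. Nfil3 had −0.67 and −1.06, and Bach1, a repressor of antioxidant genes, 0.71 and 0.84, all called. In the C/EBP family, 3 of 6 genes rose in knock-out and 4 of 6 in ΔTAD macrophages and none fell. Cebpa had 2.40 and 2.05, Cebpg 0.41 and 0.25, and Cebpe 0.05 (not called) and 1.14.

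Genes of the kinase cascades upstream of AP-1 changed in both directions. Of 17 tested genes of MAP kinases and the kinases above them, 5 rose and 6 fell in knock-out (median −0.03). In ΔTAD macrophages 9 rose and 4 fell (median 0.13). Over all genes, 22.8% were called higher and 22.4% lower in knock-out, and 26.3% and 23.4% in ΔTAD macrophages. Mapk13, a p38 isoform, had log2 fold changes of −3.21 and −1.33 from 1.44 ± 0.352 CPM in wild-type. Mapk11, another p38 isoform, had 1.57 in knock-out and 0.61 in ΔTAD macrophages. Map2k6, a p38 kinase kinase, had 2.89 in ΔTAD macrophages, from 0.282 ± 0.109 to 2.11 ± 0.111 CPM, and was not called in knock-out. Of 8 phosphatases of MAP kinases, 3 rose and 2 fell in knock-out, and 2 rose and 3 fell in ΔTAD macrophages. Dusp1, the inducible phosphatase of p38 and JNK, rose by 1.78 and 1.56, and Dusp2 had −1.92 and −1.47. Of 17 CREB kinases and coactivators, 6 rose and 3 fell in each edited genotype. Sik1, a kinase that holds CREB coactivators in the cytoplasm, had −0.60 in knock-out and −0.65 in ΔTAD macrophages. Rps6ka5, the kinase MSK1, had 0.39 and 0.34, and Prkaca, the catalytic subunit of protein kinase A, 0.38 and 0.47, all called.

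Upstream of ATF4, 4 of 7 genes of eIF2α, its kinases and its phosphatase subunits rose and 1 fell in knock-out, and 5 rose and 1 fell in ΔTAD macrophages, with medians of 0.38 and 0.42 against −0.00 over all genes in each comparison. Eif2ak2, the RNA-sensing kinase PKR, rose by 1.04 and 0.90. The 1 that fell was Eif2s1, the gene of eIF2α itself, at −0.79 and −0.66, which lies on chromosome 12. Of 22 ATF4 target genes tested, 7 rose and 9 fell in knock-out, and 4 rose and 7 fell in ΔTAD macrophages, with medians of −0.04 in each. Nupr1, a stress-induced chromatin protein, rose by 1.31 and 1.05. Chac1, which degrades glutathione, rose by 1.30 in knock-out and was not called in ΔTAD macrophages (0.58). Slc7a11, the cystine transporter, had 0.18 in knock-out and −0.72 in ΔTAD macrophages, both called.

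Immediate-early genes and the factors of the serum response were called higher for 7 and lower for 1 of 17 in knock-out (median 0.25), and higher for 6 and lower for 4 in ΔTAD macrophages (median 0.02). Klf6, a zinc finger factor, rose by 2.02 and 1.52 and Klf4 by 0.72 and 1.80 in knock-out and ΔTAD macrophages. Egr2, a growth response factor, rose by 1.28 in knock-out and was not called in ΔTAD macrophages. Egr1, which AP-1 inducers often raise, was at 12 counts or fewer in every library and was not tested. Of 10 tested genes known as AP-1 targets, 6 rose and 3 fell in knock-out (median 0.50), and 3 rose and 6 fell in ΔTAD macrophages (median −0.44). Over all genes, 22.8% were called higher and 22.4% lower in knock-out, and 26.3% and 23.4% in ΔTAD macrophages. Between knock-out and ΔTAD, 7 of the 10 targets were higher and 1 lower in knock-out, against 13.9% and 19.1% of all genes. Their median there was 0.47, against −0.03 over all genes. Ptgs2, the inducible cyclooxygenase, went from 21.1 ± 0.359 CPM in wild-type to 0.987 ± 0.544 in the knock-out and 0.365 ± 0.216 in the ΔTAD macrophages (−4.42 and −5.73), and Plaur, the urokinase receptor, had −0.96 and −1.38.

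**Figure D4:**
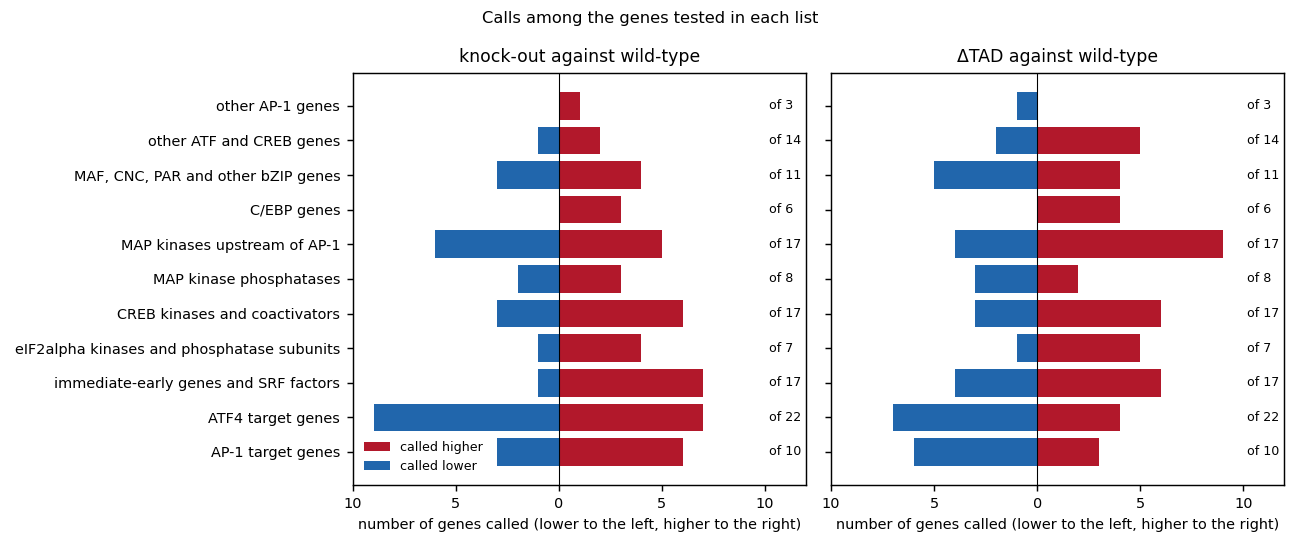
Number of genes called lower (bars to the left) and higher (bars to the right) of the genes tested in each list of related bZIP genes, upstream kinases and target genes, for knock-out and ΔTAD against wild-type (x axis, number of genes). The AP-1 target genes have 6 called higher and 3 lower in knock-out and 3 higher and 6 lower in ΔTAD macrophages. Of all genes tested, 22.8% were called higher and 22.4% lower in knock-out, and 26.3% and 23.4% in ΔTAD macrophages.

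Markers of other cell types moved with the genotypes for 1 list. The summed level of 9 osteoclast markers was 177 to 196 CPM in wild-type, 313 to 319 in knock-out and 1673 to 1733 in ΔTAD libraries, of which Ctsk, the collagen-degrading cathepsin K, gave 56.3, 103.4 and 1545 CPM on average. Of 6 osteoclast markers tested, 4 rose and 1 fell in knock-out, with Atp6v0d2 at 1.78 and Ocstamp at −1.73, and 3 rose and 1 fell in ΔTAD macrophages, with Ctsk at 4.78 and Atp6v0d2 at 0.73. The marker that fell was Dcstamp, a receptor needed for cell fusion, at −0.58, which rose by 0.82 in knock-out. Without Ctsk, the other 8 markers summed to 122 to 137 CPM in wild-type, 208 to 216 in knock-out and 152 to 161 in ΔTAD libraries, a sum added after the data were seen. The defining receptors Calcr and Oscar were at or near 0 in every genotype. The 12 macrophage markers summed to 3716 to 3924, 4896 to 5290 and 7393 to 7565 CPM in wild-type, knock-out and ΔTAD libraries. Of these sums Lyz2 alone gave 1167, 2114 and 4192 CPM on average. Of the 11 tested, 7 were higher and 2 lower in knock-out, and 8 higher and 2 lower in ΔTAD macrophages. Over all genes, 22.8% were called higher and 22.4% lower in knock-out, and 26.3% and 23.4% in ΔTAD macrophages. Adgre1, a surface receptor of macrophages, rose by 1.45 and 1.71 and Lyz2 by 0.86 and 1.84 in knock-out and ΔTAD macrophages. C5ar1, the receptor of the complement fragment C5a, had −1.80 and −3.28. The 6 markers of each other cell type summed to at most 1.93 CPM for dendritic cells, 0.288 for lymphocytes and 0.182 for fibroblasts in any library. The part of the osteoclast and macrophage genes' change in the levels of Fos, Fosl1 and the other genes described was not tested.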

How the data were processed

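Total RNA of 9 samples of RAW264.7 macrophages (RNA integrity number over 7) was depleted of ribosomal RNA and sequenced as single reads. The authors trimmed reads with Trimmomatic, aligned them with Hisat2 to GRCm38 (Ensembl annotation) and counted them on genes with HTSeq. The submitters' processing notes give versions 0.36 for Trimmomatic and 2.3.4.3 for HISAT2, which differ from those in the study's methods. The values the authors deposited are raw counts per gene, 1 list per library, with no normalization. The mode and strand setting of the counting are not given in the sources used here. Between 46.65% and 53.23% of records fell on genes, 0.974% to 1.24% were ambiguous and 11.8% to 16.3% were not unique. The CPM given for 3 counts covers counting error only.

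Genes were kept by filterByExpr (minimum count 10, minimum total 15), scaled by TMM and fitted with edgeR 4.0.16 in R 4.3.3, in 1 quasi-likelihood model of genotype over all 9 libraries (common biological coefficient of variation 0.0468). SE was taken as the absolute log2 fold change over the root of its F statistic. Intervals of 2 SE to either side come from the same fit and include the spread between libraries. Genes were called at an adjusted p-value under 0.01, the study's threshold. The steps were tested on simulated data. No 2 libraries were alike within counting noise (lowest chi-square per degree of freedom 1.98). Positions and lengths are those of GENCODE M21, which held 14301 of the 14312 genes tested, and promoters those of RefSeq. Symbols came from a separate list of gene names, where 55141 of 55487 identifiers had one.

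The 10 genes and the lists around them were chosen with earlier results of these data known, from general knowledge of the pathways. Named from each list were the 2 called genes with the largest absolute log2 fold change whose higher group had a mean of 1 CPM or more, in knock-out and in ΔTAD against wild-type. For each of the 10 genes called in all comparisons, the 3 genes with the highest Pearson r were named (log2 CPM, prior count 2). Fosb's difference between knock-out and ΔTAD, Jdp2, the uncalled values of Creb3l3 and Crebl2, Batf, Batf2, Batf3, Egr1, Csf1r, Cd68, Mertk, Dcstamp, Calcr and Oscar, and the genes that overlap one of the 10, were named after their values were seen. Values of a named gene in the genotype for which the rule did not name it were added after they were seen. Acp5 and Itgb3 were also named after their values were seen. Ddit3 has 2 identifiers and was left out. The value of 1 gene that the rule names is not reported here.

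Genotypes and replicate numbers were taken from the labels. Titles number the last libraries differently from the donor labels used here. The alternatives tried were limma-voom (limma 3.58.1), DESeq2 1.42.0, DESeq2's size factors or library size as the scaling, other filters on counts, only the genotypes compared, a replicate block, other thresholds, values relative to the chromosome's median, the longest transcript as the length, and leaving out each library.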

Additional observations from a re-analysis of the deposited data

How the results depend on the processing

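Of 510 log2 fold changes recomputed with a test (30 values under 17 alternatives), 488 kept their direction and their side of the threshold. Relative to the chromosome's median, 28 of 30 moved by less than 1.73 times their SE, Creb1 in knock-out against ΔTAD from 0.00 to −0.05, and the 2 that moved more were those of Fos against wild-type. The 14 that reversed were all of values not called. With library size as the scaling these were Atf4 in ΔTAD against wild-type (−0.0449), and Fosl2 (0.0172) and Atf3 (0.0601) in knock-out against ΔTAD. With only the genotypes compared, Atf3 in knock-out against ΔTAD was 0.0151, and with every gene of at least 1 count, Creb1 in knock-out against ΔTAD was −0.0186. Leaving out each library in turn, knock-out against ΔTAD ran from −0.0775 to 0.0352 for Atf3 and from −0.0369 to 0.0774 for Creb1. Requiring 1 or more in absolute log2 fold change left 2 of the 10 genes called higher and 0 lower in knock-out, 2 higher and 2 lower in ΔTAD, and 1 higher and 1 lower in knock-out against ΔTAD. Library size as the scaling left 1 lower in the last comparison, and moved the share of higher calls over all genes from 52.9% to 39.6% in ΔTAD against wild-type and from 42.1% to 69.0% in knock-out against ΔTAD, where lower calls went from 2740 to 1024. Jun in knock-out against wild-type was also called with every gene of at least 1 count (adjusted p = 0.00942) and with only the genotypes compared (0.00948), and Jund in knock-out against ΔTAD with every gene (0.00309). DESeq2, its size factors and the stricter filter changed no call on the 10 genes. The causes were not tested.

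Libraries with the same number did not deviate together (correlations of −0.072 to 0.02). With 3 libraries a genotype, this cannot show that the numbers do not pair them. With the replicate block, 6 and 1 of the 10 genes were called higher and lower in knock-out, 5 and 3 in ΔTAD, and 3 and 2 in knock-out against ΔTAD, as without it. At these depths Creb5, with 59 to 247 counts a library, had the largest SE of the 10.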
